A study of Mus musculus with 4 samples.

Results

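The mitochondrial ribosomal protein genes are the 76 genes whose symbol starts with Mrps or Mrpl followed by a digit, pseudogenes left out. Of these, 29 are named for the small and 47 for the large subunit, among 23284 gene symbols in the deposited tables. No member symbol stood in more than 1 entry, and the mean of every member over the libraries was above the minimum of 1 FPKM set for testing, so that all 76 were among the 10496 genes tested. FPKM is the number of fragments divided by transcript length and by library depth, so it allows levels to be compared between genes per length.

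RNA came from CD4 T cells of the spleen of inbred BALB/c mice, grown in Th1 conditions with 15 ng/ml IL-2 and 10 ng/ml IL-12, for which the labels give 4 days in one field and 5 in another. After culture the cells had been sorted into CCR7loCD137hi cells (2 libraries) and CCR7hiCD137lo cells (2 libraries), and both groups share the strain, the culture and the cytokines. CCR7 is the chemokine receptor that directs T cells to lymph nodes, and CD137, encoded by Tnfrsf9, is a costimulatory receptor that appears on T cells after activation. Nothing in the labels says whether replicates 1 and 2 came from separate mice or cultures, so p-values rest on the spread between the samples at hand, and that spread may be technical alone.

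Mitochondria carry ribosomes of their own, which make the few respiratory-chain subunits that mitochondrial DNA encodes. Their RNAs are made in the organelle, whereas all of their proteins are encoded in the nucleus and imported. The small subunit decodes the messenger RNA, and the large subunit joins the amino acids and passes the new chain to the inner membrane. Activated T cells are known to enlarge their mitochondria, and NRF1, the ETS factor GABPA and YY1 are known to bind promoters of nuclear genes for mitochondrial proteins. The comparison asks whether the 2 sorted Th1 populations differed in the transcripts of this machinery.

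For 67 of the 76 genes a promoter window from RefSeq (build GRCm38.p6) was at hand, from 250 bases before the annotated start to 50 after it. The start in the deposited tables lay within 100 bases of the RefSeq start in 63 of the 67. The windows of 7 members are shown because they hold the motif patterns counted next, or none. Capitals mark matches on either strand to the cores of NRF1 (GCGCANGCG), of ETS factors (CCGGAAG) and of YY1 (AAGATGGCG), and overlapping matches run together. Mrpl22 (chr11:58171414-58171713, plus strand), a protein near the polypeptide exit tunnel, has an NRF1 and an ETS match. Mrpl32 (chr13:14612988-14613287, minus strand) and Mrpl45 (chr11:97315466-97315765, plus strand) have 3 NRF1 matches each. Mrps18a (chr17:46110754-46111053, plus strand) has an ETS match and a YY1 match that begins after the start. Mrpl41 (chr2:24975049-24975348, minus strand) has no match. Mrps11 (chr7:78782881-78783180, plus strand) and Mrpl46 (chr7:78783040-78783339, minus strand) are transcribed away from each other.
Mrpl22: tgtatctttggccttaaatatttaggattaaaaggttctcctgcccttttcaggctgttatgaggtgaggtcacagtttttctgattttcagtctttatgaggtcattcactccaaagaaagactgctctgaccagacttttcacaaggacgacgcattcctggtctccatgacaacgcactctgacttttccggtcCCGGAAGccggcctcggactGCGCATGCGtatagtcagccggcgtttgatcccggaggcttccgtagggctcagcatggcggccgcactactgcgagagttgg
Mrpl32: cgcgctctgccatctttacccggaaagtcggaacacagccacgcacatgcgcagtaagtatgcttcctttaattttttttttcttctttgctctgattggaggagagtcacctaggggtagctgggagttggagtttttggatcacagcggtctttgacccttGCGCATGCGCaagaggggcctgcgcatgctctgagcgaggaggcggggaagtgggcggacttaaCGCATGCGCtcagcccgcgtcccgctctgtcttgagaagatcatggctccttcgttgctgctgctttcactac
Mrpl45: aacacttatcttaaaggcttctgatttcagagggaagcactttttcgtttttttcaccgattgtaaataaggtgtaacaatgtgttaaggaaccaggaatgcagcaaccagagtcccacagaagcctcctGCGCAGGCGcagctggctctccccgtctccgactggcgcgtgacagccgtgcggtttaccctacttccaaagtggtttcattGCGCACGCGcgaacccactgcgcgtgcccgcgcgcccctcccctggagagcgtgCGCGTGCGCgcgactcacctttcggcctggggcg
Mrps18a: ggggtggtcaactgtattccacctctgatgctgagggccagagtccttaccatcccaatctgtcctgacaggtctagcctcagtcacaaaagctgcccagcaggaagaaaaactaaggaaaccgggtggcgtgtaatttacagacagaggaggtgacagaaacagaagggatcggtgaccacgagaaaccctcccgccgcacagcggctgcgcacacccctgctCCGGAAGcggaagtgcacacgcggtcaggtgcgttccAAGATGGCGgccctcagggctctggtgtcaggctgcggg
Mrpl41: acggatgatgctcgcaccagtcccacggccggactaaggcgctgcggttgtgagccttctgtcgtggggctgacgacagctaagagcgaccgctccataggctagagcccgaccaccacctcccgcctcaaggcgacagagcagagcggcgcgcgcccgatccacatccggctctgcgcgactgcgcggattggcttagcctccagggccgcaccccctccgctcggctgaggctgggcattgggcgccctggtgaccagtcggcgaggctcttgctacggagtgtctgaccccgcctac
Mrps11: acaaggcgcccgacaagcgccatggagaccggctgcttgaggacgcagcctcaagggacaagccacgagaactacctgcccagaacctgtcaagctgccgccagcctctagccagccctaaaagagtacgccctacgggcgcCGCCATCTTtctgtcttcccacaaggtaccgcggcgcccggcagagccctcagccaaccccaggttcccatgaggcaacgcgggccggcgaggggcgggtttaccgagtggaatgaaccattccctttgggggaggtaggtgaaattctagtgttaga
Mrpl46: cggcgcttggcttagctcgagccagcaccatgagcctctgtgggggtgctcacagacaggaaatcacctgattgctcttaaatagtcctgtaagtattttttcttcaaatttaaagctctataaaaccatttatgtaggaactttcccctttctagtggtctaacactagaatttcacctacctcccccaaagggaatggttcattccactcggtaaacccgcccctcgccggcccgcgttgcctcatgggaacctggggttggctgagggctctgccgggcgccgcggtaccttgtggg

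Across the windows, the NRF1 core stood in 15 of 67 members (22.4%), in 15.5% of the 7465 tested genes with a window and in 6.49% of all 27025 windows of this length. In Mrpl22 it began at position -33 from the annotated start, negative positions lying before the start. The ETS core stood in 23 members (34.3%), against 21.2% of tested genes and 9.24% of all windows. It began at position -26 in Mrps18a, whose YY1 core began at position 11. The YY1 core stood in 8 members (11.9%), against 3.68% of tested genes and 1.502% of all windows. A further core, the E-box bound by MYC (CACGTG), stood in 5 members (7.46%), against 10.9% of tested genes and 7.26% of all windows. At least 1 of the 4 cores was in 41 members (61.2%), against 42.2% of tested genes. Median G and C content was 58.0% in the members' windows, 61.3% in those of tested genes and 52.7% in all windows. A match describes letters in the window and was not tested for binding.

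**Figure D1:**
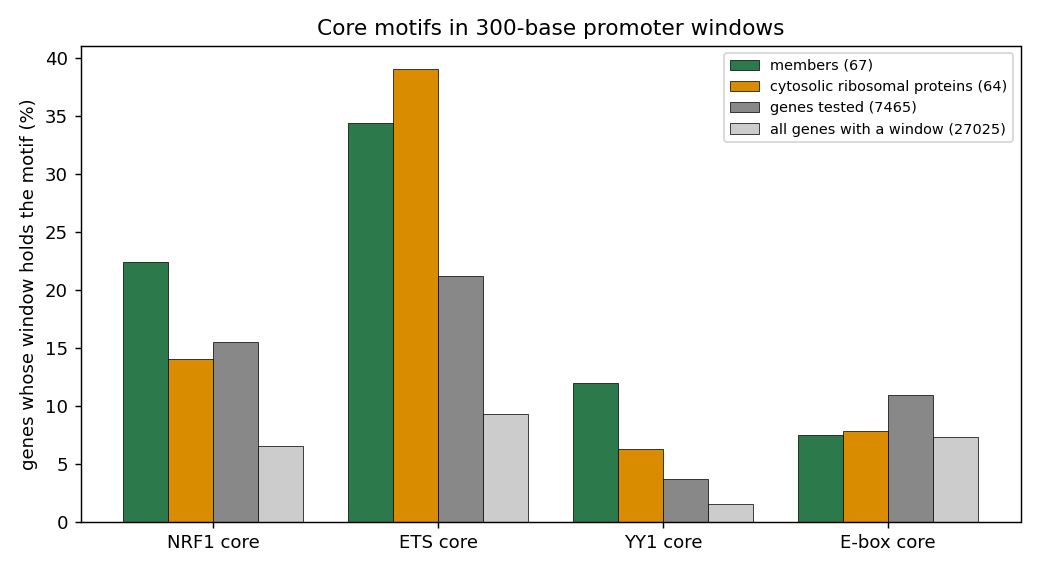
Share of genes (%) whose promoter window of 300 bases holds each motif core, in the mitochondrial ribosomal protein genes (67), cytosolic ribosomal protein genes (64), tested genes (7465) and all genes with a window (27025). The NRF1 bar is 22.4% for the members and 15.5% for tested genes, and the YY1 bars are 11.9% and 3.68%.

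The mitochondrial ribosomal protein genes were expressed at moderate to high levels in both populations. Their mean over the 4 libraries ran from 5.39 FPKM for Mrpl17 to 196 FPKM for Mrps21, with a median of 33.9 FPKM, against 12.3 FPKM for all genes tested. The summed FPKM of the 76 genes was 3513 and 2991 in CCR7loCD137hi replicates 1 and 2, against 3205 and 2993 in CCR7hiCD137lo replicates 1 and 2. This was 0.746% and 0.623% of all summed FPKM in CCR7loCD137hi cells, against 0.702% and 0.635% in CCR7hiCD137lo cells. The highest sum was that of CCR7loCD137hi replicate 1 and the lowest that of CCR7loCD137hi replicate 2, so the sums of the groups overlapped. In bulk samples, fewer cells of a type and less RNA per cell cannot be told apart.

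**Figure D2:**
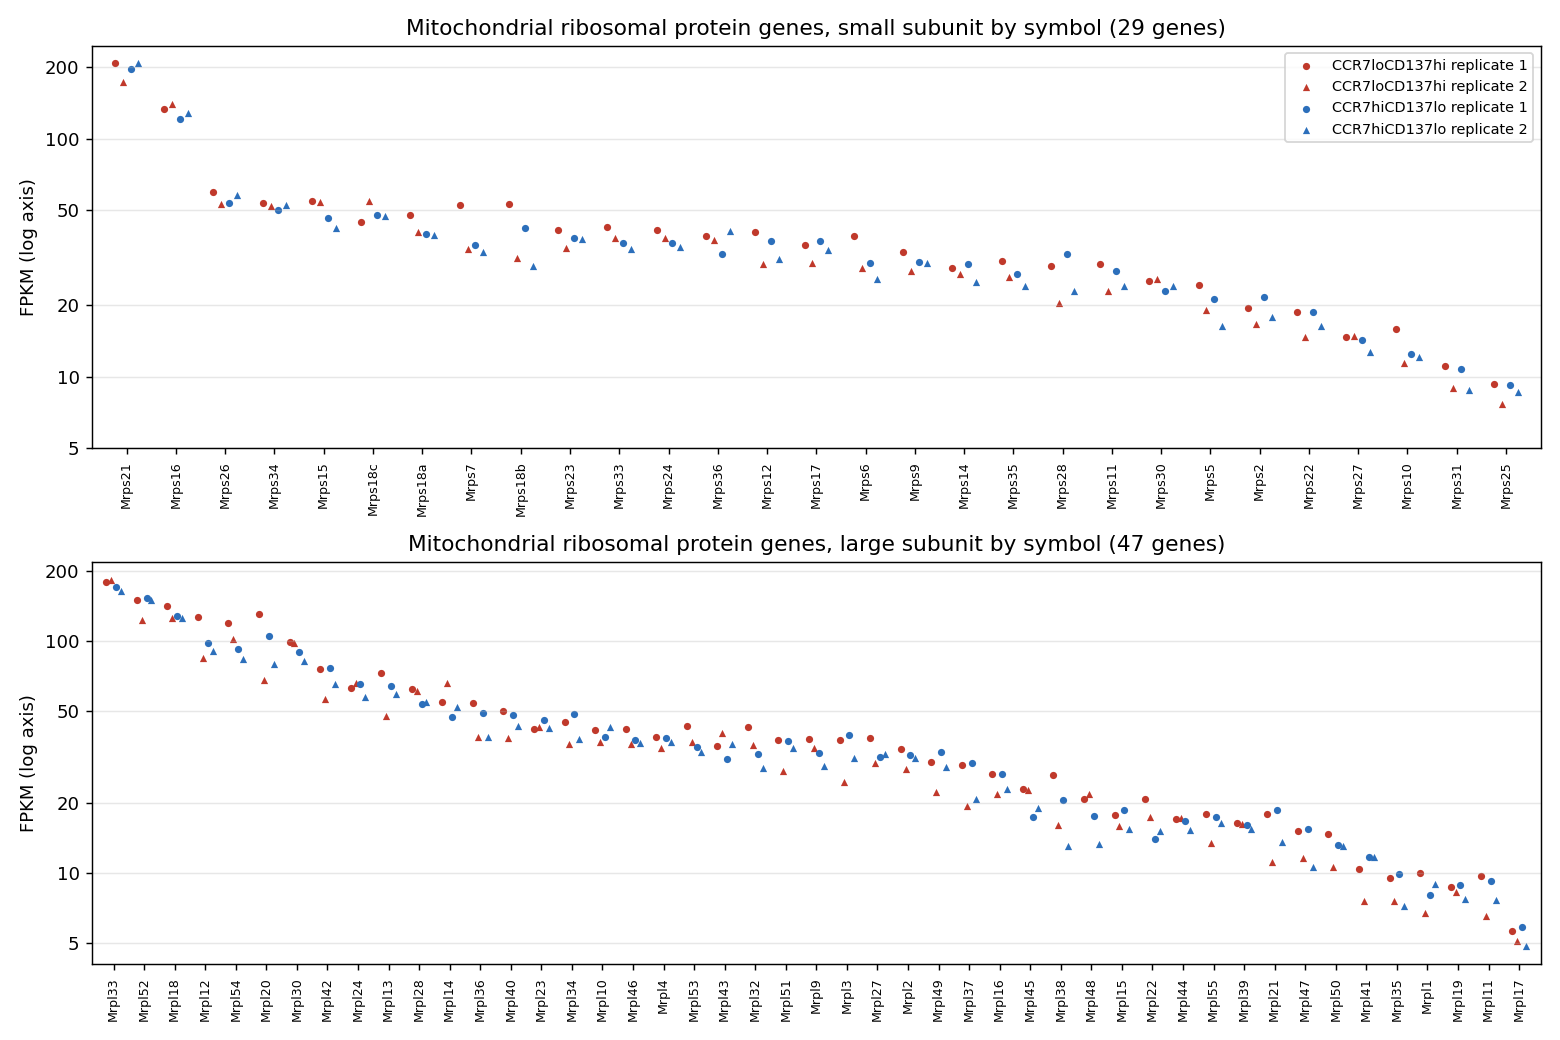
FPKM (log axis) of each of the 29 small-subunit and 47 large-subunit genes in the 4 libraries, CCR7loCD137hi in red left of CCR7hiCD137lo in blue, with replicate 1 as circles and replicate 2 as triangles. Genes run from the highest mean, Mrps21 and Mrpl33, to the lowest, Mrps25 and Mrpl17, and the 4 points of a gene lie close together relative to the distances between genes.

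None of the 76 genes was called between the populations by limma, a linear model with moderated variances run on log2(FPKM + 1) over all genes, at an adjusted p under 0.05 (Benjamini-Hochberg). The smallest adjusted p among them was 0.614, and 0 of 76 had an unadjusted p under 0.05. The background of this comparison was itself low, with 6 of 10496 genes called (0.0572%) and 853 under an unadjusted p of 0.05 (8.13%). Fitted log2 fold changes (CCR7loCD137hi minus CCR7hiCD137lo) ran from -0.36 for Mrpl41 to 0.45 for Mrpl48, with a median of 0.039, against -0.012 for all genes tested. Of the 76, 61 (80.3%) lay within 0.2 of 0, against 58.8% of all genes tested. The share was 62.4% among the 7290 genes whose mean log2(FPKM + 1) fell within the range set by the members' levels. Those genes had a median level of 18.1 FPKM and a highest mean of 1486 FPKM, so they match the members in level only loosely. None of the 76 lay beyond 0.5, against 10.6% of all genes and 7.87% of those 7290. The 95% interval of a member, not adjusted for the number of genes, reached a median of 0.41 log2 units to either side of its estimate. This reach ran from 0.29 for Mrpl33 to 0.94 for Mrpl20. A difference smaller than the reach of its own gene was not detectable with 2 libraries a group. After adjustment over all genes the limit for a call was higher still, and the 0.45 of Mrpl48, with a reach of 0.46, was not called.

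Small-subunit genes were fitted above 0 in 22 of 29 cases (75.9%) and large-subunit genes in 26 of 47 (55.3%), against 47.9% of all genes tested. Their medians were 0.052 and 0.036, which became -0.0056 and -0.019, with 13 and 20 genes above 0, when the libraries were rescaled to equal FPKM outside short RNA genes (microRNAs, small nucleolar and small nuclear RNAs), a step that moved the median of all genes from -0.012 to -0.063. Without CCR7loCD137hi replicate 1 the counts were 13 and 16 and the medians -0.017 and -0.11, without CCR7loCD137hi replicate 2 they were 27 and 43 at medians of 0.12 and 0.15, and without CCR7hiCD137lo replicate 2 the large-subunit median was -0.061. The direction of these counts and medians thus changed with the scaling and with single libraries. With Mrps18a and Mrps30, whose proteins sit in the large subunit despite their names, moved there, the counts were 20 of 27 and 28 of 49. Mrps36 is now known as a component of the 2-oxoglutarate dehydrogenase complex, and without it 47 of 75 genes were above 0. The CCR7loCD137hi libraries lay above the CCR7hiCD137lo libraries without overlap in 7 small-subunit and 13 large-subunit genes, 20 of 76 (26.3%), against 16.6% of all genes tested. They lay below without overlap in 0 and 2 genes (2.63%), against 21.5% of all genes tested. In the other 54 genes the groups overlapped. Statements on overlap, here and below, refer to the values as deposited and were not repeated after rescaling. The rescaling outside short RNA genes divides the CCR7loCD137hi libraries by 1.023 and 1.017, and the CCR7hiCD137lo libraries by 0.964 and 0.996. It thus narrows upward gaps and widens downward ones.

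Among the small-subunit proteins, Mrps21 and Mrps16, counterparts of bacterial ribosomal proteins, had the highest levels. Mrps21 stood at 208 and 173 FPKM in CCR7loCD137hi cells, against 196 and 207 FPKM in CCR7hiCD137lo cells. Mrps16 stood at 134 and 139 FPKM in CCR7loCD137hi cells, against 121 and 128 FPKM in CCR7hiCD137lo cells. The Mrps21 values overlapped, whereas both Mrps16 values in CCR7loCD137hi cells were the higher ones, by 0.13 ± 0.11 (log2 fold change ± SE, adjusted p = 0.808 by limma). Next in level came Mrps26 and Mrps34, which have no bacterial counterpart, and Mrps15, which has one. Mrps26 had 59.7 and 53.3 FPKM in CCR7loCD137hi cells and 53.8 and 57.8 FPKM in CCR7hiCD137lo cells. Mrps34 had 53.7 and 52.4 FPKM in CCR7loCD137hi cells and 50.4 and 52.5 FPKM in CCR7hiCD137lo cells. In both genes the groups overlapped.

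The largest fitted differences upward in the small subunit were those of Mrps7 and Mrps15. Mrps7, an RNA-binding protein of the head of the subunit, had 52.5 and 34.4 FPKM in CCR7loCD137hi replicates 1 and 2, against 35.7 and 33.3 FPKM in CCR7hiCD137lo replicates 1 and 2. Only CCR7loCD137hi replicate 1 stood apart, and the other 3 libraries lay within 33.3 to 35.7 FPKM. Its log2 difference was 0.54 within replicate 1 and 0.046 within replicate 2. Mrps15 had 54.8 and 54.02 FPKM in CCR7loCD137hi cells, against 46.4 and 42.2 FPKM in CCR7hiCD137lo cells, with no overlap. Its log2 fold change was 0.29 (95% interval -0.030 to 0.61), with an adjusted p of 0.645 by limma, the smallest of the small subunit. Mrps6, Mrps5 and Mrps33 had log2 fold changes of 0.25, 0.20 and 0.19. Of these 3, only Mrps33 did not overlap between the groups, with 42.5 and 38.3 FPKM in CCR7loCD137hi cells against 36.3 and 34.3 FPKM in CCR7hiCD137lo cells.

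At the other end stood Mrps28, Mrps2 and Mrps17, with log2 fold changes of -0.16, -0.13 and -0.12. Mrps28 had 29.3 and 20.4 FPKM in CCR7loCD137hi replicates 1 and 2, against 32.9 and 22.8 FPKM in CCR7hiCD137lo replicates 1 and 2. Replicate 2 was the lower one in both groups, and the gap between replicates was larger than that between groups. Mrps2, which has a bacterial counterpart, had 19.4 and 16.6 FPKM in CCR7loCD137hi cells and 21.6 and 17.9 FPKM in CCR7hiCD137lo cells. Mrps17 had 35.9 and 29.9 FPKM in CCR7loCD137hi cells and 37.3 and 34.1 FPKM in CCR7hiCD137lo cells. The groups overlapped in both genes. Mrps22, a protein found only in mitochondrial ribosomes, differed by -0.074 on the log2 scale, and its values overlapped too. The 3 lowest levels of the subunit belonged to Mrps25, Mrps31 and Mrps10. Mrps25 had 9.28 and 7.65 FPKM in CCR7loCD137hi cells and 9.19 and 8.66 FPKM in CCR7hiCD137lo cells. Mrps31 had 11.1 and 9.01 FPKM in CCR7loCD137hi cells and 10.7 and 8.81 FPKM in CCR7hiCD137lo cells. Mrps10 had 15.9 and 11.4 FPKM in CCR7loCD137hi cells and 12.5 and 12.1 FPKM in CCR7hiCD137lo cells. In all 3 the groups overlapped.

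The paralogs Mrps18a, Mrps18b and Mrps18c descend from 1 bacterial protein, and the products of Mrps18b and Mrps18c belong to the small subunit. Mrps18a had 47.9 and 40.7 FPKM in CCR7loCD137hi cells, against 39.7 and 39.3 FPKM in CCR7hiCD137lo cells, without overlap. Mrps18b had 53.1 and 31.6 FPKM in CCR7loCD137hi replicates 1 and 2, against 42.00 and 29.1 FPKM in CCR7hiCD137lo replicates 1 and 2. Mrps18c had 44.7 and 54.8 FPKM in CCR7loCD137hi cells, against 47.9 and 47.5 FPKM in CCR7hiCD137lo cells. Mrps18b was thus higher in replicate 1 of both groups, and its standard error of 0.32 was the highest of the small subunit. The log2 fold changes of the 3 paralogs were 0.16, 0.22 and 0.052, the last one turning to -0.0056 under the rescaling named above, and none was called by limma. Mrps30, whose product also sits in the large subunit, had 25.3 and 25.7 FPKM in CCR7loCD137hi cells and 22.99 and 24.01 FPKM in CCR7hiCD137lo cells. Its groups did not overlap, at a log2 fold change of 0.12. Mrps36 had 38.99 and 37.5 FPKM in CCR7loCD137hi cells and 32.8 and 41.1 FPKM in CCR7hiCD137lo cells, with the 2 CCR7hiCD137lo values on either side.

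In the large subunit the highest levels were those of Mrpl33, Mrpl52, Mrpl18, Mrpl12 and Mrpl54. Mrpl33, a small protein with a bacterial counterpart, had 178 and 182 FPKM in CCR7loCD137hi cells, against 169.7 and 163 FPKM in CCR7hiCD137lo cells. Mrpl52, which is specific to mitochondrial ribosomes, had 149 and 122 FPKM in CCR7loCD137hi cells, against 153 and 149.7 FPKM in CCR7hiCD137lo cells. The groups were apart in both genes, upward for Mrpl33 (log2 fold change 0.12 ± 0.11) and downward for Mrpl52 (-0.16 ± 0.14), with adjusted p of 0.825 and 0.813 by limma. Mrpl18 had 141 and 125 FPKM in CCR7loCD137hi cells, against 127 and 125 FPKM in CCR7hiCD137lo cells. Mrpl12, part of the stalk that contacts translation factors, had 126 and 83.97 FPKM in CCR7loCD137hi replicates 1 and 2, against 97.3 and 89.9 FPKM in CCR7hiCD137lo replicates 1 and 2. CCR7loCD137hi replicate 1 held the highest value of both genes. CCR7loCD137hi replicate 2 lay between the CCR7hiCD137lo libraries in Mrpl18 and below both of them in Mrpl12. Mrpl54 had 119 and 102 FPKM in CCR7loCD137hi cells, against 92.3 and 83.7 FPKM in CCR7hiCD137lo cells, without overlap and with a log2 fold change of 0.32 (95% interval -0.044 to 0.69).

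Mrpl48 had the highest fitted difference of all 76 genes. It stood at 20.8 and 21.98 FPKM in CCR7loCD137hi cells, against 17.6 and 13.4 FPKM in CCR7hiCD137lo cells. Both CCR7loCD137hi values were the higher ones, at a log2 fold change of 0.45 (95% interval -0.0064 to 0.91, adjusted p = 0.614 by limma), and the difference was 0.23 within replicate 1 and 0.68 within replicate 2. Exons of Mrpl48 overlap those of Rab6a on the opposite strand, and whether the authors' counting used the strand is not given in the sources used here. Mrpl22, whose window was shown above, had 20.9 and 17.5 FPKM in CCR7loCD137hi cells, against 14.01 and 15.3 FPKM in CCR7hiCD137lo cells. Mrpl32, a protein whose maturation by a mitochondrial protease is known to control ribosome assembly, had 42.6 and 35.7 FPKM in CCR7loCD137hi cells, against 32.5 and 28.2 FPKM in CCR7hiCD137lo cells. Mrpl45, which links the exit tunnel to the inner membrane, had 23.04 and 22.9 FPKM in CCR7loCD137hi cells, against 17.4 and 19.03 FPKM in CCR7hiCD137lo cells. None of these 3 overlapped between the groups, at log2 fold changes of 0.37, 0.35 and 0.32 and adjusted p of 0.640, 0.667 and 0.624 by limma. Mrpl38 had 26.3 and 16.1 FPKM in CCR7loCD137hi replicates 1 and 2, against 20.6 and 13.2 FPKM in CCR7hiCD137lo replicates 1 and 2. It was higher in CCR7loCD137hi cells within each replicate number but overlapped across them.

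Mrpl41, a protein also reported to bind the apoptosis regulator BCL2, had the lowest fitted difference. It stood at 10.5 and 7.61 FPKM in CCR7loCD137hi cells, against 11.7 and 11.7 FPKM in CCR7hiCD137lo cells. The CCR7hiCD137lo libraries were nearly equal and both CCR7loCD137hi libraries lay below them, at a log2 fold change of -0.36 (95% interval -0.85 to 0.14, adjusted p = 0.718 by limma). Mrpl41 and Mrpl52 were the 2 genes in which the CCR7loCD137hi libraries lay below without overlap. Mrpl49 had 30.2 and 22.4 FPKM in CCR7loCD137hi cells, against 33.1 and 28.7 FPKM in CCR7hiCD137lo cells. Mrpl3, whose bacterial counterpart lies near the peptidyl transferase centre, had 37.3 and 24.7 FPKM in CCR7loCD137hi cells, against 39.1 and 31.3 FPKM in CCR7hiCD137lo cells. In both genes CCR7loCD137hi replicate 2 was the lowest library and the groups overlapped. Mrpl21 and Mrpl51 had log2 fold changes of -0.16 and -0.15. The lowest levels of the subunit were those of Mrpl17, Mrpl11 and Mrpl19. Mrpl17 had 5.63 and 5.14 FPKM in CCR7loCD137hi cells and 5.90 and 4.87 FPKM in CCR7hiCD137lo cells. Mrpl11 had 9.75 and 6.54 FPKM in CCR7loCD137hi cells and 9.22 and 7.70 FPKM in CCR7hiCD137lo cells. Mrpl19 had 8.75 and 8.29 FPKM in CCR7loCD137hi cells and 8.88 and 7.72 FPKM in CCR7hiCD137lo cells. All 3 overlapped between the groups.

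The difference between the populations was not the same within the 2 replicate numbers. Within replicate 1, where 1 library stands against 1 and no test is possible, 54 of 76 genes (71.1%) were higher in CCR7loCD137hi cells, 23 of the small and 31 of the large subunit, against 52.3% of all genes. Within replicate 2 this held for 39 (51.3%), 15 of the small and 24 of the large subunit, against 44.6% of all genes. The median log2 difference of small-subunit genes was 0.13 within replicate 1 and 0.029 within replicate 2, and that of large-subunit genes was 0.073 and 6.9e-05. Over all genes tested the 2 medians were 0.013 and -0.036. The differences within replicate numbers, and the sums further below, use the values as deposited. Rescaling outside short RNA genes, with the divisors given above, lowers the differences more within replicate 1, for members and all genes alike. Counts and medians within replicate numbers were not repeated on that scale. In 30 genes (39.5%, against 32.97% of all genes) the CCR7loCD137hi library was higher in both replicates, and in 13 (17.1%, against 35.9%) it was lower in both. In 24 genes it was higher within replicate 1 and lower within replicate 2, and in 9 the reverse. The largest such gaps were those of Mrpl1, Mrpl20 and Mrpl13. Mrpl1, the protein of the mobile L1 stalk, differed by 0.28 within replicate 1 and by -0.36 within replicate 2. Mrpl20 differed by 0.31 and -0.23, and Mrpl13 by 0.17 and -0.31.

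**Figure D3:**
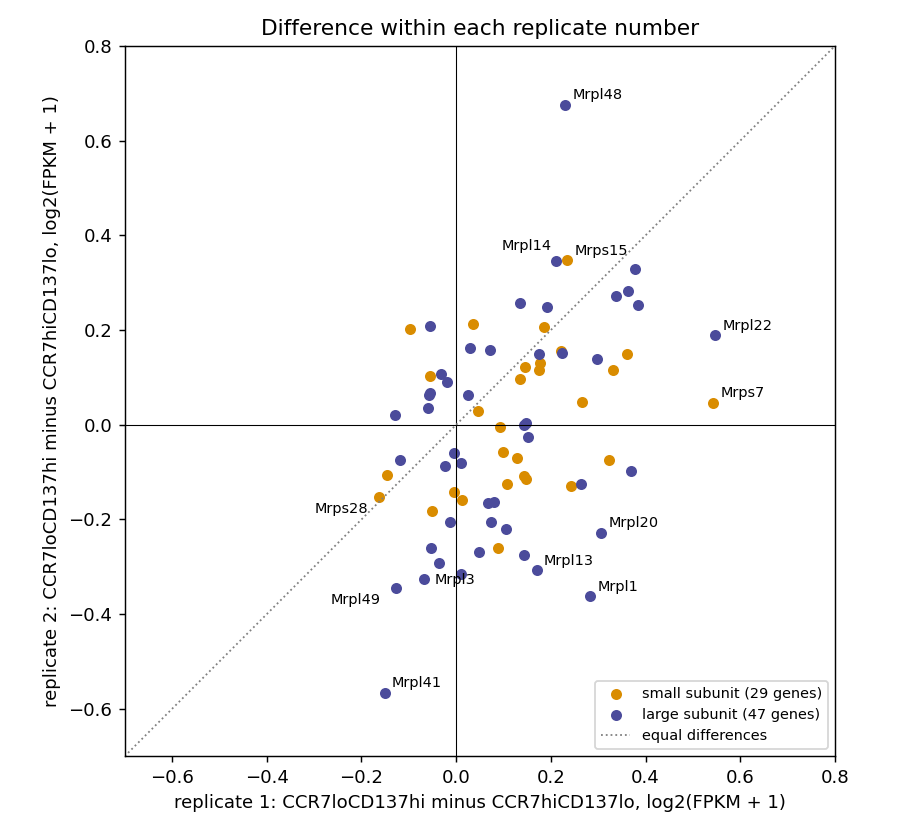
Difference in log2(FPKM + 1) between CCR7loCD137hi and CCR7hiCD137lo within replicate 2 (vertical axis) against that within replicate 1 (horizontal axis), 1 point a gene, small subunit in orange and large subunit in blue. Of 76 points, 30 lie in the upper right part and 24 in the lower right part, with Mrpl48 at the top and Mrpl41 at the bottom.

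The members also differed between the replicate numbers, mostly in the same direction in both populations. In 54 of 76 genes (71.1%) replicate 2 was lower than replicate 1 in both populations, against 29.4% of all genes tested, and it was higher in both in 4. The median log2 difference of replicate 2 minus replicate 1 was -0.25 in CCR7loCD137hi cells and -0.12 in CCR7hiCD137lo cells, against 0.031 and 0.079 over all genes. Mrpl20, with 129.7 and 67.6 FPKM in CCR7loCD137hi replicates 1 and 2 and 105 and 79.3 FPKM in CCR7hiCD137lo replicates 1 and 2, shows this pattern. The median absolute log2 difference over the 76 genes was 0.26 between the CCR7loCD137hi libraries and 0.14 between the CCR7hiCD137lo libraries. Between the groups it was 0.14 within replicate 1 and 0.15 within replicate 2. Estimated depth also ran with the replicate number and, within each number, was lower in CCR7loCD137hi cells. As a share of the deepest library it was 0.564 and 0.306 in CCR7loCD137hi replicates 1 and 2, against 1 and 0.631 in CCR7hiCD137lo replicates 1 and 2. The part of depth in the differences was not tested. At Mrpl17, the lowest member, the estimate corresponds to 65.4 and 32.4 fragments per kilobase in CCR7loCD137hi replicates 1 and 2, against 121 and 63.3 in CCR7hiCD137lo replicates 1 and 2.

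Summed by subunit, the small-subunit genes reached 1278 and 1114 FPKM in CCR7loCD137hi replicates 1 and 2, against 1159 and 1119 FPKM in CCR7hiCD137lo replicates 1 and 2. The large-subunit genes reached 2235 and 1877 FPKM in CCR7loCD137hi replicates 1 and 2, against 2046 and 1874 FPKM in CCR7hiCD137lo replicates 1 and 2. Both sums were higher in CCR7loCD137hi cells within replicate 1 (log2 ratios of 0.14 and 0.13) and nearly equal within replicate 2 (log2 ratios of -0.0067 and 0.0021). The genes of the cytosolic ribosome, which translates nuclear messages, summed to 66212 and 70412 FPKM in CCR7loCD137hi cells, against 58478 and 63541 FPKM in CCR7hiCD137lo cells. That sum was higher in CCR7loCD137hi cells and higher in replicate 2, the opposite order of replicates from the mitochondrial sums. Of 82 tested cytosolic genes 78 had a fitted value above 0 (median 0.16), and quantile normalization lowered this to 51 genes and a median of 0.047. In 50 (61.0%, against 16.6% of all genes) the CCR7loCD137hi libraries lay above without overlap. By limma 0 were called, with 5 under an unadjusted p of 0.05, against 8.13% of all genes. Rpl41 and Rplp1, the most abundant of them, had log2 fold changes of 0.27 and 0.12, and the extremes were Rps2 at 0.58 and Rps27 at -1.61. Rps27 had 23.5 and 894 FPKM in CCR7loCD137hi replicates 1 and 2, against 269.9 and 753 FPKM in CCR7hiCD137lo replicates 1 and 2, so its replicates differed more than its groups. Many cytosolic ribosomal genes have near-identical processed copies in the genome, and how the authors' counting split such reads is not given in the sources used here.

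**Figure D4:**
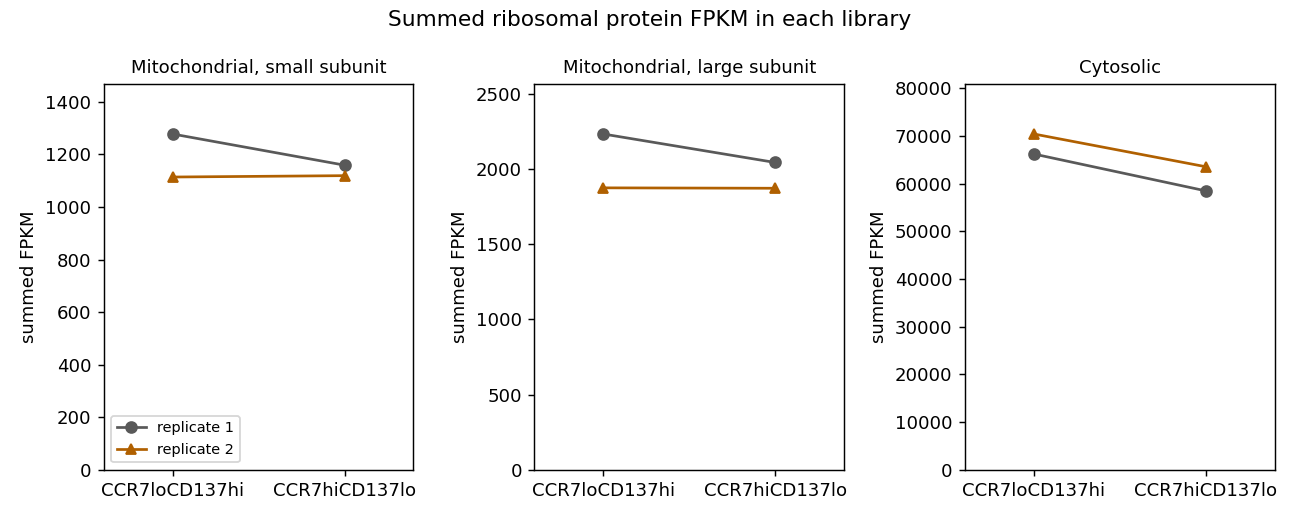
Summed FPKM of the small-subunit, large-subunit and cytosolic ribosomal protein genes in each library, CCR7loCD137hi left of CCR7hiCD137lo, with lines joining libraries of the same replicate number. The mitochondrial sums are highest in CCR7loCD137hi replicate 1 (1278 and 2235 FPKM), and the cytosolic sums are higher in CCR7loCD137hi cells for both replicate numbers.

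Proteins of the mitochondrial ribosome that carry other names were looked at beside the members. All 7 (Dap3, Ptcd3, Chchd1, Aurkaip1, Gadd45gip1, Mrp63 and Ict1) had fitted values above 0 (median 0.048), but 3 after the rescaling outside short RNA genes (median -0.0080) and 3 without CCR7loCD137hi replicate 1 (median -0.028). The median was 0.26 without CCR7loCD137hi replicate 2 and 0.19 without CCR7hiCD137lo replicate 1. None was called by limma, and 0 had an unadjusted p under 0.05. Gadd45gip1, which lies at the exit tunnel of the large subunit, had 27.5 and 27.05 FPKM in CCR7loCD137hi cells, against 21.8 and 23.2 FPKM in CCR7hiCD137lo cells, without overlap and at a log2 fold change of 0.27. Chchd1, a small-subunit protein, had 125 and 110.5 FPKM in CCR7loCD137hi cells, against 109 and 99.3 FPKM in CCR7hiCD137lo cells. Its groups did not overlap either. For Dap3, the GTP-binding protein of the small subunit, and Ict1, a peptidyl-tRNA hydrolase built into the large subunit, the log2 fold changes were 0.038 and 0.0007. Those of Ptcd3, Aurkaip1 and Mrp63 were 0.048, 0.17 and 0.028.

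The factors that build and serve the mitochondrial ribosome gave 0 calls by limma as well, with 0 under an unadjusted p of 0.05 in the first 3 lists that follow. Of 28 tested assembly and rRNA modification genes 13 were above 0 (median -0.019). That median was 0.029 without CCR7hiCD137lo replicate 2, 0.0069 without CCR7hiCD137lo replicate 1, 0.0048 without CCR7loCD137hi replicate 2 and -0.057 without CCR7loCD137hi replicate 1. Ddx28, an RNA helicase of large-subunit assembly, was at the upper end, with 7.76 and 8.05 FPKM in CCR7loCD137hi cells against 5.08 and 6.81 FPKM in CCR7hiCD137lo cells (log2 fold change 0.37). Gtpbp10 was at the lower end (-0.23), and Grsf1 and Rbfa, the most expressed, stood at 0.15 and 0.11. Of 16 translation factors 7 were above 0 (median -0.0085, and 0.0013 with median-of-ratios scaling). Without CCR7hiCD137lo replicate 1 that median was 0.059, without CCR7loCD137hi replicate 2 it was 0.038, and without CCR7hiCD137lo replicate 2 it was -0.029. Tufm, the elongation factor that brings aminoacyl-tRNA to the ribosome, had 58.4 and 46.4 FPKM in CCR7loCD137hi cells against 41.6 and 40.8 FPKM in CCR7hiCD137lo cells. It did not overlap between the groups (log2 fold change 0.33), while Oxa1l, the inner-membrane insertase, stood at 0.31 and Pdf at -0.16. Of 17 genes of mitochondrial transcription and RNA processing 6 were above 0, and 7 (41.2%, against 21.5% of all genes) lay below without overlap. Their median was -0.076, with 0.040 without CCR7loCD137hi replicate 2, -0.012 without CCR7hiCD137lo replicate 1, -0.12 without CCR7loCD137hi replicate 1 and -0.16 without CCR7hiCD137lo replicate 2. Ssbp1, the single-stranded DNA-binding protein of mitochondria, had 18.7 and 12.2 FPKM in CCR7loCD137hi cells against 21.3 and 19.1 FPKM in CCR7hiCD137lo cells. Pus1 stood at 0.29 and Hsd17b10 at -0.041. Transcripts of mitochondrial DNA itself were not analysed here.

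Of 12 tested regulators of mitochondrial biogenesis 3 were above 0 (median -0.18) and 8 (66.7%, against 21.5% of all genes) lay below without overlap. Their median was -0.078 without CCR7loCD137hi replicate 2 and -0.28 without CCR7loCD137hi replicate 1. None was called by limma over all genes, and 1 had an unadjusted p under 0.05. The 2 most expressed were also the extremes. Myc had 116 and 158 FPKM in CCR7loCD137hi replicates 1 and 2, against 81.5 and 122 FPKM in CCR7hiCD137lo replicates 1 and 2. It was higher in CCR7loCD137hi cells within each replicate number, but the groups overlapped (log2 fold change 0.44). Max, the partner with which MYC binds DNA, had 76.2 and 50.03 FPKM in CCR7loCD137hi replicates 1 and 2, against 99.6 and 83.7 FPKM in CCR7hiCD137lo replicates 1 and 2. Both CCR7loCD137hi libraries lay below (log2 fold change -0.56). Nrf1 and Gabpa, whose factors bind 2 of the motif cores counted above and which were singled out for that reason after their values were seen, stood at -0.17 and -0.17, and Yy1 at 0.082. Ppargc1a, a coactivator of these factors, was listed at 0 in all 4 libraries. Mycn, the other listed regulator below the minimum for testing, went upward without overlap at low levels. It had 1.61 and 1.06 FPKM in CCR7loCD137hi cells, against 0.182 and 0.0961 FPKM in CCR7hiCD137lo cells.

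**Figure D5:**
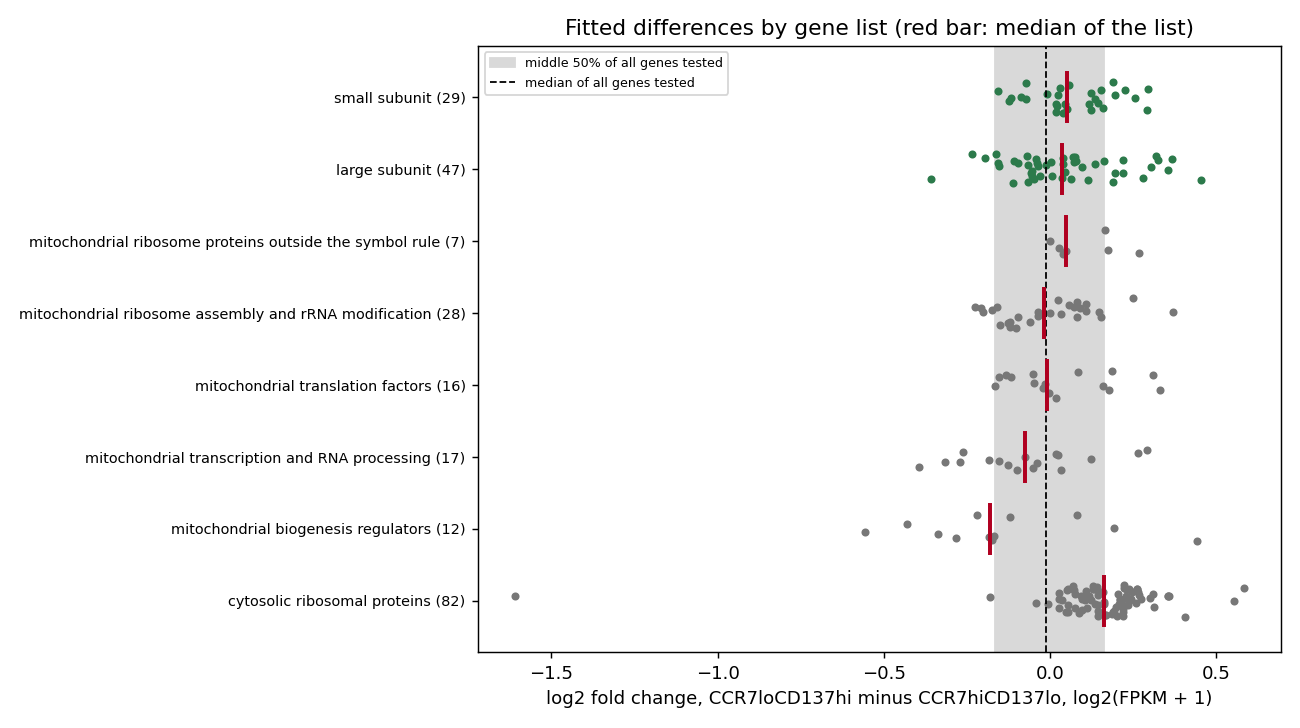
Fitted log2 fold change (CCR7loCD137hi minus CCR7hiCD137lo) of each tested gene in the members' 2 subunits (green) and in related lists (grey), 1 point a gene, with a red bar at each list's median, a dashed line at the median of all genes tested and a grey band over their middle 50%. The subunit medians of 0.052 and 0.036 (-0.0056 and -0.019 after rescaling outside short RNA genes) lie inside the band. Those of the biogenesis regulators (-0.18, and -0.28 to -0.078 with 1 library left out) and of the cytosolic ribosomal proteins (0.16) lie below and above them in the fit on all 4 libraries.

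Members with and without a motif overlapped in fitted difference. The 15 members with an NRF1 core had a median log2 fold change of 0.14, against 0.033 for the 52 with a window that lacked it, and both sets held values below and above 0. The medians were 0.052 with the ETS core and 0.039 without it, and 0.048 with the YY1 core and 0.039 without it.

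Position in the genome, which the symbol rule did not use, was looked at as well. Of the 76 genes, 20 (26.3%) began next to the start of a gene transcribed the other way, with at most 500 bases between the starts or an overlap of at most 200 bases. This held for 1390 of 20205 placed protein-coding genes (6.88%), which include genes too low to be tested. The share among tested genes alone was not computed. Mrps11 and Mrpl46, singled out here as the only pair of members among these, lie on chromosome 7 with 41 bases between their starts, and their windows printed above share 141 bases (chr7:78783040-78783180). Mrps11 had 29.7 and 22.97 FPKM in CCR7loCD137hi cells, against 27.7 and 23.96 FPKM in CCR7hiCD137lo cells. Mrpl46 had 41.6 and 35.8 FPKM in CCR7loCD137hi cells, against 37.3 and 36.5 FPKM in CCR7hiCD137lo cells. Both were a little higher within replicate 1 and lower within replicate 2, and overlapped between the groups. Of the 19 pairs, 18 had a tested partner, 0 partners were called by limma, and the fitted difference had the same sign on both sides in 4. The share of equal signs among such pairs of all genes was not computed. Several members of these pairs lay near 0, and Mrps11, Mrps12, Mrps18c, Mrps34 and Mrpl47 turned below 0 after rescaling outside short RNA genes. The count of equal signs thus depends on the scaling and was not repeated. Mrpl49, next to the cytosolic ribosomal gene Fau, is one example with opposite signs, at -0.24 for Mrpl49 and 0.22 for Fau. Exons of 27 members overlap a gene on the opposite strand, Mrps7 among them, and those of 8 a gene on the same strand. How reads of overlapping genes were assigned is not given in the sources used here.

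The sort genes stood apart as labelled. Tnfrsf9 stood at 158 and 184 FPKM in CCR7loCD137hi cells, against 0.961 and 6.25 FPKM in CCR7hiCD137lo cells, and Ccr7 at 39.6 and 38.2 FPKM in CCR7loCD137hi cells, against 93.4 and 118 FPKM in CCR7hiCD137lo cells. The 8 measured T cell markers, including Cd4, summed to 1143 to 1415 FPKM in CCR7loCD137hi cells, against 1268 to 1368 FPKM in CCR7hiCD137lo cells. Cd4 alone had 95.6 and 176 FPKM in CCR7loCD137hi replicates 1 and 2, against 125 and 182 FPKM in CCR7hiCD137lo replicates 1 and 2. Its groups overlapped, and its lowest value was that of CCR7loCD137hi replicate 1. Markers of CD8 T and NK cells summed to 14.5 and 4.38 FPKM in CCR7loCD137hi replicates 1 and 2, against 2.63 and 4.58 FPKM in CCR7hiCD137lo replicates 1 and 2. B cell markers summed to 4.44 and 0.529 FPKM in CCR7loCD137hi replicates 1 and 2, against 0.0917 and 0.145 FPKM in CCR7hiCD137lo replicates 1 and 2. The highest sums of both lists were thus in CCR7loCD137hi replicate 1, the library with the highest member sums, and their part in these was not tested. Myeloid markers summed to at most 0.571 FPKM and erythroid markers to at most 1.56 FPKM in any library, with Csf1r and Hbb-b1 listed at 0 in all 4.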

How the data were processed

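Per the labels, TRIzol served for RNA extraction and a stranded mRNA kit for the libraries. The FPKM values were computed by the authors and deposited as 1 Cufflinks gene table per library, per the file headers. The submitters' processing notes name build mm10, Cufflinks 2.0.2, TopHat 1.3.2 and Bowtie 0.12.8. The annotation used, strand use and scaling between libraries were not given in the sources used here. Transcripts of mitochondrial DNA and reads were not analysed here.

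A symbol that stood in several entries was represented by its highest-mean entry. Genes with a mean of at least 1 FPKM were tested on log2(FPKM + 1), a scale that understates changes of low genes, with limma 3.58.1 in R 4.3.3 (variance trend, two-sided, Benjamini-Hochberg over 10496 genes, 2 residual and 2.54 prior degrees of freedom). Exact permutation of 2 against 2 libraries cannot go below p = 0.333. The code of the fit was checked on simulated data with less noise and larger changes than the members showed. That check does not measure the power of the comparison made here. Tables were handled in Python 3.11.15. Depth was estimated from ratios of low values between libraries, with an assumed fragment of 200 bases for its absolute size, and is approximate. Strand and exon overlaps came from GENCODE on mm10, promoter windows from RefSeq.

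The members and lists were chosen with earlier results of these data known. The named members are, in each subunit, the 5 highest and 3 lowest in mean FPKM, the 6 highest and 6 lowest in log2 fold change, the 3 with the largest gap between replicate numbers, the Mrps18 paralogs and Mrps30. In each list they are the 2 most expressed and both extremes. Alternatives were 3 scalings, another pseudocount, 2 filters, no variance trend, the replicate block, summed repeated entries, and leaving out each library.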

Additional observations from a re-analysis of the deposited data

How the results depend on the processing

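No alternative gave a called member: limma called 0 of 29 small-subunit and 0 of 47 large-subunit genes under all 13. With all 4 libraries kept, the unadjusted p of limma was under 0.05 in 0 to 8 of the 76. The 8 came under the replicate block, where 21.7% of all genes tested were under 0.05. With the replicate number as a block, the counts above 0 and the medians were as before (22 and 26 genes, 0.052 and 0.036), the smallest adjusted p of a member in limma was 0.145, and 42 of all genes were called in place of 6. Same-numbered libraries deviated together with r = 0.21 over all genes and 0.51 over the members, but with 2 numbers this is only a hint that they are pairs. Rescaling to equal FPKM outside short RNA genes left 13 small-subunit genes above 0 and a large-subunit median of -0.019. Over all 76 members that rescaling took the genes above 0 from 48 to 33. In the large subunit it turned the named members Mrpl17 (-0.047), Mrpl19 (-0.017) and Mrpl20 (-0.019) below 0. In the small subunit it turned the named members Mrps18c (-0.0056), Mrps26 (-0.041), Mrps31 (-0.016), Mrps34 (-0.014) and Mrps36 (-0.00046) below 0. Quantile normalization turned Mrpl17 (-0.051) and Mrps26 (-0.0031) below 0. Leaving out 1 library gave 13 to 27 small-subunit and 16 to 43 large-subunit genes above 0, with medians of -0.017 to 0.12 and -0.11 to 0.15. It turned the sign of 25 of 42 named members, whose log2 fold changes then ranged as follows: Mrpl1 (-0.29 to 0.21), Mrpl11 (-0.32 to 0.19), Mrpl12 (-0.15 to 0.43), Mrpl13 (-0.37 to 0.23), Mrpl17 (-0.11 to 0.12), Mrpl18 (-0.013 to 0.16), Mrpl19 (-0.054 to 0.13), Mrpl20 (-0.43 to 0.50), Mrpl21 (-0.47 to 0.16), Mrpl3 (-0.48 to 0.089), Mrpl38 (-0.034 to 0.64), Mrpl51 (-0.37 to 0.062), Mrps10 (-0.097 to 0.34), Mrps17 (-0.24 to 0.012), Mrps18b (-0.14 to 0.59), Mrps18c (-0.092 to 0.20), Mrps2 (-0.25 to 0.0030), Mrps21 (-0.22 to 0.047), Mrps22 (-0.24 to 0.092), Mrps25 (-0.20 to 0.051), Mrps26 (-0.063 to 0.097), Mrps28 (-0.41 to 0.098), Mrps31 (-0.10 to 0.18), Mrps36 (-0.10 to 0.22) and Mrps7 (-0.0033 to 0.59). With an arm of 1 library, that library is assumed to vary like the others. Of 546 values of named members under alternatives 500 kept their sign, and 16 members kept it throughout. The cause of the changes was not tested. The interval of a member, 0.41 log2 units to either side at the median, limits what 4 libraries can show.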
